A study of Mus musculus with 9 samples.

Results

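Cadherins and claudins are the membrane proteins that hold neighboring cells together at adherens junctions and tight junctions. The genes described here are all protein-coding mouse genes whose symbol is Cdh or Cldn followed only by a number, found by mapping the Ensembl identifiers of the deposited gene counts to symbols. They comprise 46 of the 50686 genes counted, 23 cadherins and 23 claudins. By their known families, 5 of the cadherins are type I classical cadherins, 13 are type II classical cadherins, and the other 5 (Cdh13, Cdh16, Cdh17, Cdh23, and Cdh26) fall outside the classical types, so that "classical" does not cover all of them.

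RNA-Seq of total RNA had been performed on 3 groups of n = 3 libraries. The controls were MC3T3-E1 cells, a single mouse osteoblast line, without treatment. The SB216763 group was the same line given 10 μM of SB216763, a small molecule that inhibits GSK3 kinases, for 14 days. The third group was mouse pulmonary endothelial cells (ECs), listed with no treatment and isolated by FACS. The time in culture of the controls is not given in the sources used here, nor are the surface markers of the EC sort, the strain, or the age of the animals. The study's flow cytometry used antibodies against CD31 (Pecam1) and VE-cadherin (Cdh5), so the level of these genes in ECs may in part have been set by a gate. No source says that the libraries of a group came from separate cultures or animals, so the p-values measure the spread between these libraries, which may be technical.

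A classical cadherin binds a like cadherin on the next cell through calcium-dependent repeats outside the cell, and its tail binds p120-catenin and β-catenin, which lead through α-catenin to actin. β-Catenin is also the transcriptional effector that GSK3 marks for destruction, so the same protein serves junctions and Wnt signaling. Mesenchymal cells, osteoblasts included, are known for N-cadherin (Cdh2) and cadherin-11 (Cdh11), and endothelium for VE-cadherin, the main adherens junction cadherin of that lineage. Claudins form the strands of tight junctions and set how tightly the space between cells is sealed. Claudin-5 (Cldn5) is the principal claudin of vascular endothelium, while most of the family is epithelial.

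The members are unevenly placed in the genome. By GENCODE release M21 on GRCm38, 8 of the 23 cadherin genes lay on chromosome 8 and 5 on chromosome 15, and 6 of the 23 claudin genes lay on chromosome 16. Cdh11 (chr8:102632095-102785642) and Cdh5 (chr8:104101625-104144511), the leading cadherin genes of the osteoblasts and of the ECs, were neighbors within the family, 1.32 Mb apart. Cdh3 and Cdh1 were separated by 46.1 kb. The claudins expressed in these cells were Cldn5 (chr16:18776847-18778262) and Cldn12 (chr5:5489537-5514958).

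Windows of 250 bases immediately before the start of a transcript, written 5′ to 3′ on the strand of the gene, show what lies upstream of 4 members with contrasting patterns. The sequences are RefSeq's, on GRCm38.p6. Cldn5 (chr16:18776597-18776846, plus strand) and Cdh6 (chr15:13173676-13173925, minus strand) were expressed almost exclusively in ECs, Cldn12 (chr5:5514977-5515226, minus strand, the farthest upstream of its 3 windows) was expressed in all groups, and Cdh24 (chr14:54641365-54641614, minus strand) rose after treatment. Capitals mark matches, on either strand, to the TCF/LEF core CTTTGA, the E-box CAGGTG, the ETS core CGGAAG, or the GC box GGGCGG.
Cldn5: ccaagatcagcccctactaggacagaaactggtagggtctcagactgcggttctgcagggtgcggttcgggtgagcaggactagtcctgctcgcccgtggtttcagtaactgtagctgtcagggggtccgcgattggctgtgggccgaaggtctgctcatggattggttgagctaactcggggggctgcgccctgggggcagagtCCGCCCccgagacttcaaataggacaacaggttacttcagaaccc
Cdh6: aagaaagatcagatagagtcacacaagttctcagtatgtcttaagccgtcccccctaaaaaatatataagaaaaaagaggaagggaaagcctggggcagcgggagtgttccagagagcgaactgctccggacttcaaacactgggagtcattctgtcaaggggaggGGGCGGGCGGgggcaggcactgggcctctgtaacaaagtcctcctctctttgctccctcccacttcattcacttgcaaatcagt
Cldn12: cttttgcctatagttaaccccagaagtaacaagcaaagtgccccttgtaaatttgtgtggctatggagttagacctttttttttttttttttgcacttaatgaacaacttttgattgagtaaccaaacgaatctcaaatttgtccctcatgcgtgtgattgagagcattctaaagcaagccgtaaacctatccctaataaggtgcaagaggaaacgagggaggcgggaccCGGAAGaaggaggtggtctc
Cdh24: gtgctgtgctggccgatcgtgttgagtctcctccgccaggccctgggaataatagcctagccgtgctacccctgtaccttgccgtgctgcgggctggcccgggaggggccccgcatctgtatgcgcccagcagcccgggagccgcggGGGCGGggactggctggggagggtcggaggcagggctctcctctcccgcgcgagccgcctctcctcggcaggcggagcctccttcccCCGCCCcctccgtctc
The Cldn5 window held 1 GC box on the opposite strand, and that of Cdh24 held 1 on each strand. The 2 GC boxes of Cdh6 overlapped each other, and the Cldn12 window held 1 ETS core. Windows were at hand for 32 of the 46 members, 42 windows in all, with none for Cdh2, Cdh5, or Cdh11. Some members had several windows, in part overlapping, so a site could count more than once. All windows with an ETS core belonged to Cldn7 or Cldn12. Of the 42 windows, 4 (9.52%) held the TCF/LEF core, 6 (14.3%) the E-box, 5 (11.9%) the ETS core, and 17 (40.5%) the GC box. Over all 32851 windows the shares were 13.8%, 17.2%, 13.6%, and 32.7%. A match is a run of letters and not a known binding site, and no difference between these shares was tested.

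The libraries held between 30990107 and 68946333 counts. Levels are CPM, counts scaled to a common library size, with library sizes normalized by the TMM method, and 3 counts, taken as the smallest level this depth can show, corresponded to 0.0435 to 0.0968 CPM of the total counts. These floors and the intervals below cover counting error only. The labels were checked with lists of cell type markers. All 8 endothelial markers exceeded 1 CPM in ECs (summed level 5248 to 5338 CPM) and none did in controls (2.69 to 3.26 CPM) or after treatment (2.29 to 2.90 CPM). Osteoblast markers summed to 43921 to 59349 CPM in the 3 controls, 8068 to 8339 CPM after treatment, and 45.1 to 64.5 CPM in ECs, and the mesenchymal and mural list ran at 3398 to 3565, 1153 to 1186, and 41.1 to 42.6 CPM. Such sums follow their most abundant genes. Among the osteoblast markers, mean Runx2 went from 158 to 116 CPM with treatment and mean Sp7 from 298 to 26.0 CPM. The other osteoblast markers are not given singly here. In ECs, single genes of 2 other lists stood out, Msln of the 4 mesothelial markers at a mean of 120 CPM and Cd68 of the 5 leukocyte markers at 46.6 CPM. The defining markers Wt1 and Ptprc were at 0.0102 and 0.0915 CPM there, and the epithelial marker Epcam had no counts in any library. The 14 lung epithelial markers summed to at most 2.83 CPM in ECs, 1.46 CPM in controls, and 6.54 CPM after treatment. Lymphatic markers summed to 248 to 264 CPM in ECs against 90.8 to 102 CPM in controls and 91.7 to 102 CPM after treatment, with Flt4 at 170, Lyve1 at 87.8, Pdpn at 0.115, and Prox1 at 0.0154 CPM in ECs. Pdpn, at 97.0 CPM in controls and 97.7 CPM after treatment, made up nearly all of the osteoblast sums. Red cell and muscle markers reached at most 0.382 and 1.64 CPM in any library. The part of other cell types in the results on ECs was not tested. These are bulk samples, so fewer cells of a type and less RNA per cell cannot be told apart in any level given here.

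Few members of either family were in use. A mean of at least 1 CPM in some group was reached by 11 cadherins and 2 claudins (Cldn5 and Cldn12). The count was 7 members in controls, 5 after treatment, and 11 in ECs, and at 10 CPM it was 4, 3, and 6. Differences were tested for the 16 members, 12 cadherins and 4 claudins, that passed the expression filter, with FDR under 0.01 as passing the test. Members that passed the filter only because one group expressed them could hardly fail to differ, so the counts below describe these 16 and not the families. The same holds for the adjusted p of any single gene whose counts lie almost wholly in a single group. All 3 comparisons draw on the same 9 libraries, and each pair of comparisons shares a group.

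Between treated and control osteoblasts, 2 members rose (Cdh11 and Cdh24) and 6 fell (Cdh2, Cdh3, Cdh17, Cdh22, Cdh26, and Cldn12), while 8 did not pass the test. Over all 15531 genes tested, 32.9% rose and 32.0% fell, so the total of 8 of 16 was no larger a share than among genes at large. At a fold change of at least 4, the cutoff of the study's methods, Cdh3, Cdh17, and Cdh22 fell (background 5.84%) and 0 members rose (background 3.81%). The latter count, from edgeR, was also 0 with DESeq2 and with limma-voom, and 8 members, rising or falling, had an unadjusted p under 0.05. Without SB216763 replicate 2 the fall of at least 4-fold applied to 5 members, the added genes being Cdh2 and Cldn1. The median log2 fold change was -0.19 over the 16 members and 0.01 over all genes.

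Against controls, ECs were higher in 10 members and lower in 5 (backgrounds 39.0% and 37.9%), and at 4-fold in 8 and 5 (13.5% and 9.87%). Treated osteoblasts against ECs were higher in 3 and lower in 11 (38.3% and 40.3%), and at 4-fold in 2 and 9 (10.3% and 15.0%). The median log2 fold change was 1.61 for ECs over controls and -2.62 for treated osteoblasts over ECs.

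**Figure D1:**
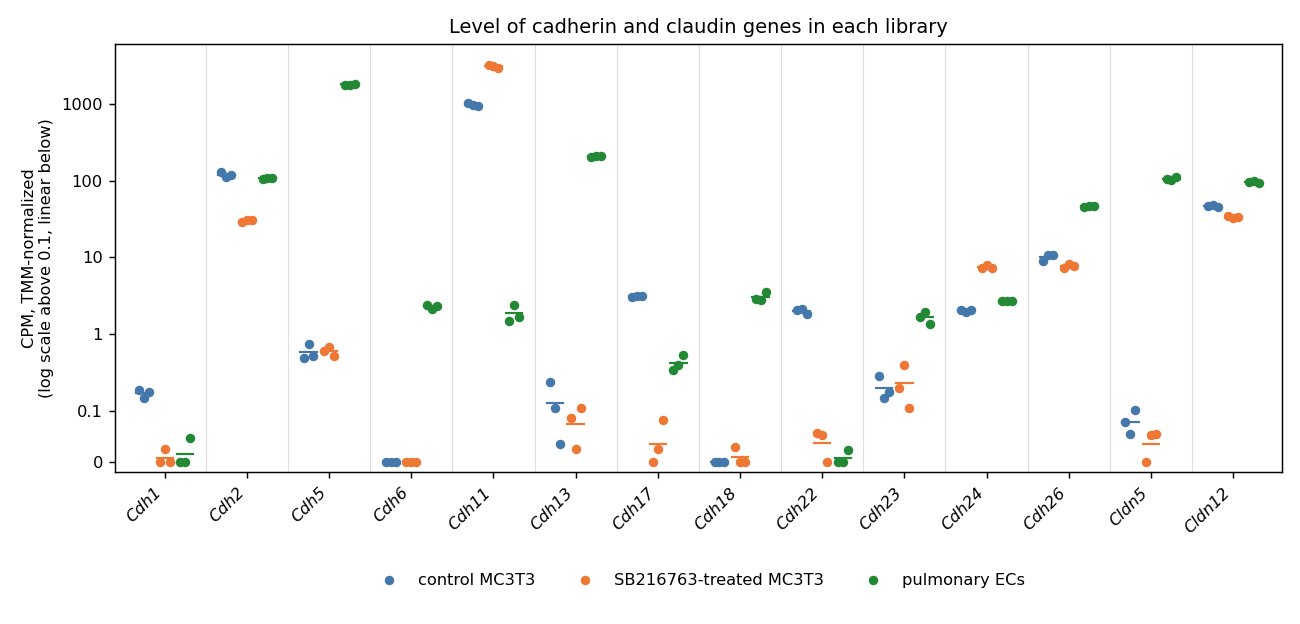
Level of 14 cadherin and claudin genes in each of the 9 libraries, in TMM-normalized CPM on an axis that is logarithmic above 0.1 and linear below. Each point is 1 library and each short line the mean of the 3 libraries of a group. Cdh5, Cdh13, and Cldn5 lie above 100 CPM in all ECs and below 1 CPM in every osteoblast library, while Cdh11 lies at 930 CPM or more in every osteoblast library and at 2.41 CPM or less in all ECs.

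Of the type I cadherins, Cdh2 (chr18:16588877-16809246) was the main one. N-cadherin links mesenchymal, neural, and also endothelial cells. Cdh2 was at 128, 112, and 117 CPM in the 3 controls, 28.4, 30.9, and 31.02 CPM after treatment, and 106, 109, and 109 CPM in ECs. The treated libraries lay apart from both other groups, which were close to each other. Cdh2 fell by 1.99 on the log2 scale with treatment (SE 0.056, adjusted p = 2.89e-14), a 3.96-fold drop that lay just under the 4-fold cutoff. It crossed the cutoff without control replicate 2 (-2.04), control replicate 3, SB216763 replicate 2, or SB216763 replicate 3 (-2.01 each). The fit of only the 2 groups compared also took it past the cutoff (-2.01). The lower level in ECs than in controls was small and did not pass the test (log2 fold change -0.15, SE 0.052, adjusted p = 0.0169), but passed without control replicate 2 (-0.20, adjusted p = 0.001). Treated osteoblasts had less Cdh2 than ECs (-1.84, SE 0.056, adjusted p = 2.82e-14).

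The epithelial type I cadherins were at trace levels in all groups. Cdh3, P-cadherin, had 50, 60, and 26 counts in controls, 0, 1, and 0 after treatment, and 3, 2, and 0 in ECs. It fell with treatment (adjusted p = 1.70e-07), with a ratio of 102 between control and treated counts (95% exact interval 17.9 to 4042), and was lower in ECs than in controls (adjusted p = 3.01e-07, log2 fold change -4.37, SE 0.47). Cdh1, E-cadherin, which lies beside Cdh3, was below the expression filter. It had 12, 8, and 5 counts in controls, 0, 1, and 0 after treatment, and 0, 0, and 2 in ECs. The ratio of control to treated counts was 18.7 (95% exact interval 3.06 to 767). Both neighbors thus had their counts almost wholly in the control libraries. Cdh4 (R-cadherin) and Cdh15 (M-cadherin, of muscle) had 12 and 2 counts over all 9 libraries.

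The type II cadherins carried the sharpest contrast between the cell types. Cdh11, also called OB-cadherin after osteoblasts, was at 1028, 957, and 930 CPM in controls, 3225, 3108, and 2908 CPM after treatment, and 1.49, 2.41, and 1.69 CPM in ECs. The 3 groups did not overlap, and treatment took the gene farther from its level in ECs. Cdh11 rose 3.17-fold with treatment (log2 fold change 1.66, SE 0.080, adjusted p = 2.05e-11). The EC mean was 0.192% of the control mean (log2 fold change -9.05, SE 0.12, adjusted p = 8.04e-19), and treated osteoblasts against ECs differed by 10.72 (SE 0.13, adjusted p = 2.17e-19). The mesenchymal and mural markers given above also differed between these groups. Their sum was lower after treatment, most of it Acta2 (2915 to 144 CPM). Pdgfrb (254 to 746 CPM) and Pdgfra (33.3 to 67.0 CPM) were at higher means. The rest of the list (Cspg4, Rgs5, Myh11, and Dcn) is not given singly here, so the named genes do not stand for the whole. The part of these markers in the result was not tested.

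VE-cadherin had the reverse distribution between cell types. Cdh5 was at 0.488, 0.746, and 0.521 CPM in controls (31, 41, and 15 counts), 0.602, 0.678, and 0.517 CPM after treatment (21, 26, and 19 counts), and 1779, 1769, and 1834 CPM in ECs. The control and treated libraries overlapped, and both lay near 0.03% of the EC mean (0.0326% and 0.0334%). The log2 fold change with treatment was 0.02 (SE 0.19, adjusted p = 0.944), and the ratio of treated to control counts was 1.02 with a 95% exact interval of 0.726 to 1.41. ECs were higher than controls by 11.56 (SE 0.10, adjusted p = 2.28e-20), and treated osteoblasts against ECs stood at -11.54 (SE 0.10, adjusted p = 2.97e-20).

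On chromosome 15, Cdh6 and Cdh18 had counts almost only in ECs. Cdh6, K-cadherin of kidney and neural crest, had 106, 70, and 100 counts in ECs and 0 in all 6 osteoblast libraries, which places ECs at least 113-fold higher than controls and at least 84.5-fold higher than treated osteoblasts, against a floor of 3 counts over the group. Cdh18, a cadherin best known from brain, had 126, 90, and 152 counts in ECs, 0 in controls, and 1 in the treated libraries. ECs were at least 151-fold higher than controls, and the ratio of EC to treated counts was 338 (95% exact interval 60.3 to 13394). The adjusted p values for ECs against controls were 3.16e-09 for Cdh6 and 2.20e-10 for Cdh18. Both genes passed the expression filter only through ECs, so this test could hardly fail and adds no support. In CPM these were small amounts even in ECs, 2.29 ± 0.15 and 3.05 ± 0.415 (SD, n = 3). The other 3 cadherins of that chromosome, Cdh9, Cdh10, and Cdh12, had at most 2 counts each in the whole series.

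Cdh22 and Cdh24 moved in opposite directions with treatment. Cdh22, a cadherin of brain and pituitary, was at 2.06, 2.15, and 1.84 CPM in controls (131, 118, and 53 counts), with 2, 2, and 0 counts after treatment and 0, 0, and 1 in ECs. All control libraries lay far above the rest. It fell by 5.69 on the log2 scale with treatment (SE 0.39, adjusted p = 1.67e-09), and the ratio of control to EC counts was 245 (95% exact interval 43.7 to 9728, adjusted p = 4.03e-10). Cdh24 was at 2.03, 1.93, and 2.05 CPM in controls, 7.25, 8.05, and 7.22 CPM after treatment, and 2.68, 2.68, and 2.73 CPM in ECs. The treated libraries were the highest for this gene, above ECs as well. Cdh24 rose 3.76-fold with treatment (log2 fold change 1.91, SE 0.096, adjusted p = 3.62e-11) and was 2.78-fold higher in treated osteoblasts than in ECs (adjusted p = 3.92e-10). Scaling by library size alone took the rise past the 4-fold cutoff, at 2.11. The difference between ECs and controls was small (0.43, SE 0.11, adjusted p = 0.00175), and was lost without control replicate 2 (0.40, adjusted p = 0.0107).

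Outside the classical types, Cdh13 had the highest level, 18.4 CPM per kilobase of exon in ECs. T-cadherin, its product, has no cytoplasmic tail, is held to the membrane by a lipid anchor, and binds adiponectin. It was at 0.236, 0.109, and 0.0347 CPM in controls, 0.086, 0.0261, and 0.109 CPM after treatment, and 205, 207, and 209 CPM in ECs. The osteoblast groups overlapped near the floor, and the treated to control difference did not pass the test (-1.01, SE 0.55, adjusted p = 0.116), with a range of -1.40 to -0.20 when single libraries were left out. ECs were higher than controls by 10.41 (SE 0.13, adjusted p = 2.82e-19), or by 11.22 without control replicate 1, which held 15 of the 22 control counts.

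Cdh26 was the other cadherin of this group with a substantial level. It was at 8.93, 10.7, and 10.7 CPM in controls, 7.31, 8.18, and 7.71 CPM after treatment, and 44.99, 46.3, and 46.4 CPM in ECs. Every EC library was above every osteoblast library, and the treated libraries were lowest. The higher level in ECs than in controls passed the 4-fold cutoff (log2 fold change 2.19, SE 0.068, adjusted p = 3.64e-14). Cdh26 fell by 0.37 with treatment (SE 0.079, adjusted p = 5.25e-04), a call that was lost with scaling by library size alone (-0.17, adjusted p = 0.0672).

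Cdh17, the cadherin of liver and intestine, was a transcript of the control osteoblasts here. It was at 3.07, 3.17, and 3.13 CPM in controls (195, 174, and 90 counts), with 0, 1, and 3 counts after treatment, and at 0.344, 0.396, and 0.533 CPM in ECs. The controls were tightly grouped and the treated libraries were near 0, below ECs. Cdh17 fell by 6.31 on the log2 scale with treatment (SE 0.35, adjusted p = 1.12e-10), or by 7.56 without SB216763 replicate 3, a value fitted on 1 treated count. Treated osteoblasts were also below ECs (-3.45, SE 0.52, adjusted p = 1.54e-05; -4.68 without that library), and ECs below controls (-2.86, SE 0.21, adjusted p = 3.33e-09). Cdh23, the tip-link cadherin of hair cells, was at 0.284, 0.146, and 0.174 CPM in controls, 0.201, 0.391, and 0.109 CPM after treatment, and 1.67, 1.92, and 1.37 CPM in ECs. The osteoblast groups overlapped and ECs were higher than controls by 2.95 (SE 0.31, adjusted p = 2.67e-07). Vsir, on the opposite strand of Cdh23, was itself at 12.02 CPM in ECs against 0.436 CPM in controls. In GENCODE release M21, no exon of Vsir overlaps an exon of Cdh23. The strand setting of the counting is not given in the sources used here, and the part of Vsir reads in the Cdh23 counts was not tested. Cdh16, of kidney, had 28 counts over all 9 libraries.

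Among claudins, Cldn12 was present in every group. Claudin-12 is an atypical, broadly expressed claudin. Its level was 46.3, 48.7, and 45.5 CPM in controls, 34.2, 32.6, and 33.1 CPM after treatment, and 95.8, 99.6, and 91.6 CPM in ECs. The groups were well separated, with the treated libraries lowest. Cldn12 fell 1.41-fold with treatment (log2 fold change -0.49, SE 0.048, adjusted p = 1.31e-07) and was 2.04-fold higher in ECs than in controls (1.03, SE 0.046, adjusted p = 4.47e-12). Treated osteoblasts were 2.87-fold below ECs (adjusted p = 3.54e-14).

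Cldn5 was an EC transcript. It had 5, 3, and 3 counts in controls, 0, 2, and 2 after treatment, and 4564, 3365, and 4736 in ECs, or 105, 102, and 110 CPM. The control mean was 0.075% of that in ECs and the treated mean 0.0337%. At this depth no difference with treatment was detectable (log2 fold change -0.98, SE 0.65, adjusted p = 0.236), with a ratio of control to treated counts of 2.05 and a 95% exact interval of 0.609 to 8.85. ECs were higher than controls by 10.41 (SE 0.12, adjusted p = 1.26e-19).

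The other tested claudins were under 1 CPM in every group. Cldn15, which forms cation pores in intestine, was at 0.0974 ± 0.0163, 0.153 ± 0.0492, and 0.984 ± 0.352 CPM (SD, n = 3) in controls, treated osteoblasts, and ECs, and was higher in ECs than in controls (log2 fold change 3.35, SE 0.36, adjusted p = 3.79e-07). Cldn20 was at 0.403 ± 0.118, 0.438 ± 0.0677, and 0.0511 ± 0.0248 CPM, and was lower in ECs than in controls (-2.87, SE 0.48, adjusted p = 3.99e-05). Cldn20 overlaps Tfb1m on the opposite strand, which was at 6.27, 5.85, and 7.73 CPM. The exons of these genes do not overlap in GENCODE release M21, and the part of Tfb1m reads in Cldn20 was not tested. Neither claudin passed the test between treated and control osteoblasts (adjusted p = 0.269 and 0.614).

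Of the 30 members below the expression filter, 11 cadherins and 19 claudins, 6 had no count in any library (Cdh9, Cdh20, Cldn13, Cldn16, Cldn17, and Cldn22). Exons of Cldn22 and of Wwc2, on the opposite strand, overlap in GENCODE release M21. Wwc2 was at 177, 112, and 325 CPM in controls, treated osteoblasts, and ECs. The part of this overlap in the lack of Cldn22 counts was not tested. The other 24 members below the filter reached at most 59 counts over the series and 23 in a library. Cldn1, of epidermis and bile ducts, had the most, with 15, 17, and 11 counts in controls, 2, 5, and 1 after treatment, and 6, 0, and 2 in ECs. The ratio of its control to treated counts was 4.02 (95% exact interval 1.87 to 9.89). Cldn6, an embryonic claudin, was the mirror image, with 0 counts in controls, 2, 0, and 1 after treatment, and 23, 10, and 11 in ECs, at least 18.04-fold higher in ECs than in controls. The ratio of its EC to treated counts was 13.5 (95% exact interval 4.32 to 67.9). Both genes lay at the margin of the filter. Without it, both passed at 4-fold in ECs against controls, Cldn1 lower (-2.14, adjusted p = 3.96e-04) and Cldn6 higher (adjusted p = 1.73e-11), and Cldn6 was also lower in treated osteoblasts than in ECs (adjusted p = 1.13e-06). Other epithelial claudins had few counts. Cldn2, Cldn3, Cldn4, Cldn7, and Cldn18 had 24, 7, 4, 21, and 8 counts in all. Cldn19 had 21 counts, Cldn9 had 11, Cldn10 and Cldn23 had 7 each, Cldn24 had 5, Cldn8 had 3, Cldn14 had 2, and Cldn11, of myelin and testis, had 1. Among the remaining cadherins, Cdh7 had 3 counts, Cdh8 and Cdh19 had 2 each, Cdh12 had 2, and Cdh10 had 1.

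**Figure D2:**
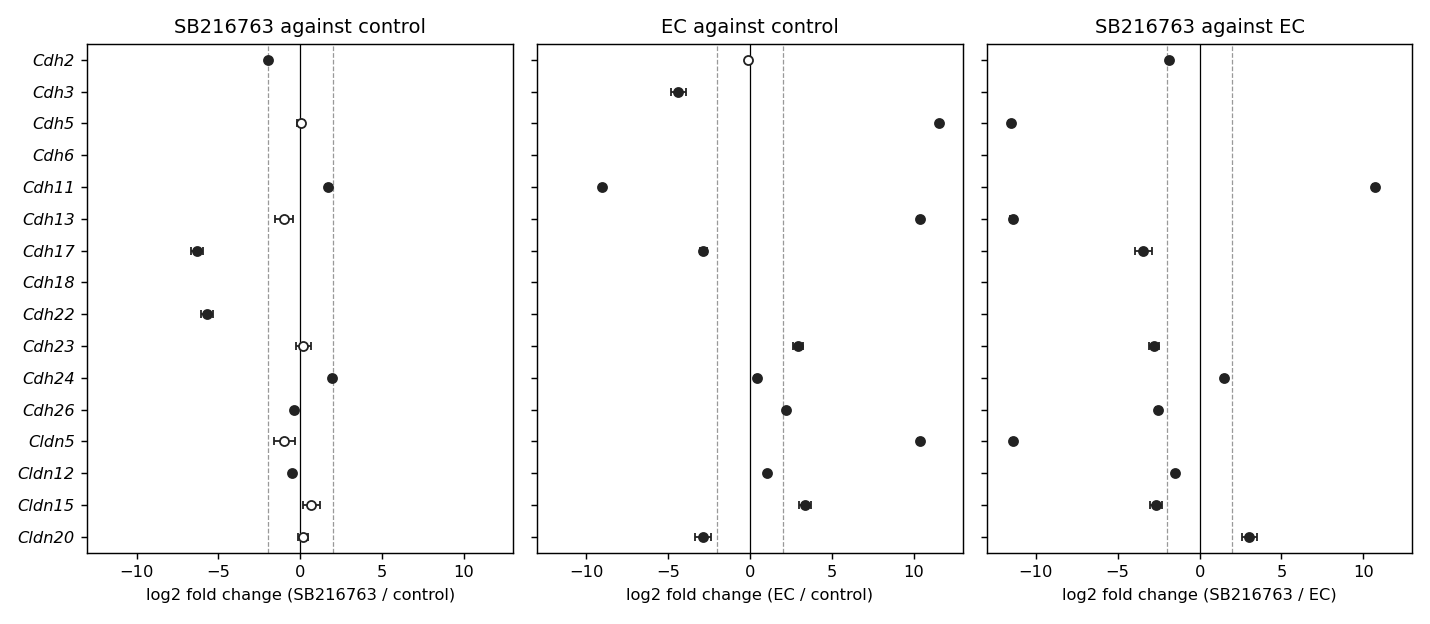
Log2 fold change of the 16 tested members in the 3 comparisons, with bars of 1 SE; filled points passed the test at an FDR under 0.01, open points did not, and the dashed lines mark a 4-fold change. Genes with 3 counts or fewer over a group have no point in that panel. Between treated and control osteoblasts, Cdh17 and Cdh22 lie left of the dashed lines and no point lies right of them, while the points of ECs against controls reach from -9.05 (Cdh11) to 11.56 (Cdh5).

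The makeup of each family was compared on the scale of counts per kilobase of exon, which allows levels of different genes to be set side by side. In controls, Cdh11 made up 84.3% ± 0.41 of all cadherin counts per kilobase and Cdh2 11.4% ± 0.41 (SD, n = 3). After treatment, the share of Cdh11 was 97.5% ± 0.20 and that of Cdh2 was 1.06% ± 0.099. In ECs, Cdh5 made up 89.7%, Cdh13 3.88%, Cdh26 3.20%, and Cdh2 2.81%, and Cdh11 0.044%. Every group was thus led by a single type II cadherin, and treatment left the lead with Cdh11. The ratio of Cdh11 to Cdh2 per kilobase was 7.25, 7.72, and 7.20 in the 3 controls, 103, 91.2, and 84.9 after treatment, and 0.0127, 0.0201, and 0.0141 in ECs. By counts without the length, the shares were 87.5% and 98.5% for Cdh11 in controls and treated osteoblasts and 82.8% for Cdh5 in ECs.

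The claudins were led by Cldn12 in both osteoblast groups, at 92.6% ± 1.21 of the claudin counts per kilobase in controls and 89.8% ± 0.637 after treatment, with Cldn20 next at 5.09% and 7.56%. In ECs, Cldn5 led with 75.9% ± 1.23 and Cldn12 followed with 23.1% ± 1.37. The ratio of Cldn5 to Cldn12 per kilobase was 3.26, 3.07, and 3.57 in the 3 ECs and at most 0.00683 in any osteoblast library. The sum of all 23 cadherins was 1110 ± 57.0 CPM in controls, 3127 ± 159 CPM with SB216763, and 2167 ± 37.8 CPM in the ECs. For claudins the sums were 48.0 ± 1.66, 34.2 ± 0.833, and 203 ± 0.783 CPM. The cadherin sum was highest after treatment and the claudin sum highest in ECs. Cdh11 made up nearly all of the former, and Cldn5 and Cldn12 nearly all of the latter.

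**Figure D3:**
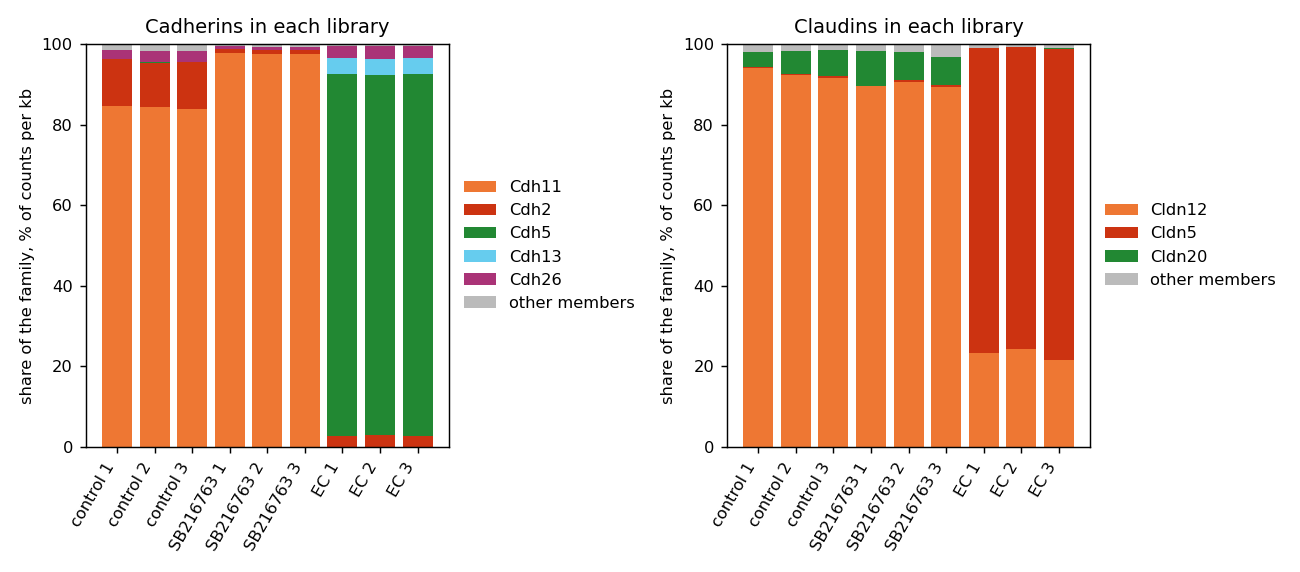
Share of each member in the summed counts per kilobase of its family, in percent, for cadherins (left) and claudins (right), with 1 bar for each library and the members named in the legends. The osteoblast libraries are led by Cdh11 and Cldn12 and the EC libraries by Cdh5 and Cldn5.

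A list of 52 other junction genes, called junction partners here, was also followed, and 42 of them were tested. It holds proteins that bind cadherins or claudins, and also other junction proteins such as the nectins. Between treated and control osteoblasts 12 rose, 16 fell, and 14 did not pass, and at 4-fold 1 rose (Jam2) and 1 fell (Ptprb). Over all genes 32.9% rose and 32.0% fell, and 3.81% and 5.84% did so at 4-fold, so the counts for this list lie near the background. The median log2 fold change was 0.07, beside 0.01 over all genes. In ECs 27 were higher and 11 lower than in controls, 14 and 2 of them at 4-fold, with a median of 0.91 (backgrounds 39.0% and 37.9%, and 13.5% and 9.87% at 4-fold). Treated osteoblasts against ECs were higher in 7 and lower in 30, at 4-fold in 2 and 13, with a median of -1.22 (backgrounds 38.3% and 40.3%, and 10.3% and 15.0% at 4-fold).

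All 6 tested catenins passed the test with treatment, 2 rising and 4 falling (backgrounds 32.9% and 32.0%), by less than 4-fold in each case. Ctnnb1, β-catenin, was at 578 ± 8.35 CPM in controls, 678 ± 17.8 after treatment, and 788 ± 10.6 in ECs, and rose by 0.23 on the log2 scale with treatment (SE 0.05, adjusted p = 2.90e-04). Ctnnd1, the p120-catenin that keeps cadherins at the surface, was at 46.6 ± 4.46, 38.0 ± 2.23, and 38.4 ± 1.94 CPM and fell by 0.30 (SE 0.07, adjusted p = 9.29e-04). The largest change in this group was in Pkp4, a p120-related catenin named here after its values were seen, which fell by 1.55 (62.2 to 21.3 CPM, adjusted p = 2.23e-14).

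Of the 16 tested tight junction scaffolds, 5 rose and 5 fell with treatment (backgrounds 32.9% and 32.0%), and 10 were higher and 3 lower in ECs than in controls (39.0% and 37.9%). Tjp1, the scaffold ZO-1, was at 114 ± 17.8 CPM in controls, 73.5 ± 0.442 after treatment, and 401 ± 7.66 in ECs, a fall of 0.64 with treatment (SE 0.08, adjusted p = 3.38e-06). Ocln, occludin, was at or under 0.0287 CPM in every osteoblast library and at 13.03 ± 0.145 CPM in ECs.

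Of the 7 tested membrane proteins of that group, 2 rose with treatment (background 32.9%) and 5 did not pass. Jam2, which mediates contacts between endothelial cells and leukocytes, was at 1.42 to 1.61 CPM in controls, 18.95 to 21.7 CPM after treatment, and 34.0 to 36.0 CPM in ECs. Its log2 fold change with treatment was 3.71 (SE 0.08, adjusted p = 1.85e-15), and treated osteoblasts remained below ECs by 0.77 (SE 0.06, adjusted p = 4.23e-09). Esam, an endothelial member of that family, was at 0.249 ± 0.0658 CPM in controls, 0.309 ± 0.00846 after treatment, and 396 ± 13.9 in ECs, and did not pass between the osteoblast groups (adjusted p = 0.561). F11r, of the same list and named here after its values were seen, was at 0.0571 ± 0.0113, 0.102 ± 0.0621, and 257 ± 4.31 CPM in the same order. It was higher in ECs than in controls by 12.13 (SE 0.11, adjusted p = 2.28e-20) and did not pass between the osteoblast groups (adjusted p = 0.225).

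The VE-cadherin partners were both high in ECs. Ptprb, the phosphatase VE-PTP that associates with VE-cadherin, was at 2.62 ± 0.38 CPM in controls, 0.44 ± 0.111 after treatment, and 777 ± 30.4 in ECs, and fell by 2.54 with treatment (SE 0.17, adjusted p = 1.32e-09). Pecam1 was at 0.759 ± 0.182, 0.788 ± 0.202, and 1756 ± 14.6 CPM, and did not pass between treated and control osteoblasts (0.09, SE 0.21, adjusted p = 0.725). The nectins and afadin, which form a parallel adhesion system, divided into 2 that rose and 2 that fell of 5 tested with treatment. Of the 6 actin linkers, 1 rose and 4 fell. Over all genes 32.9% rose and 32.0% fell, and no difference of these small lists from those shares was tested.

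**Figure D4:**
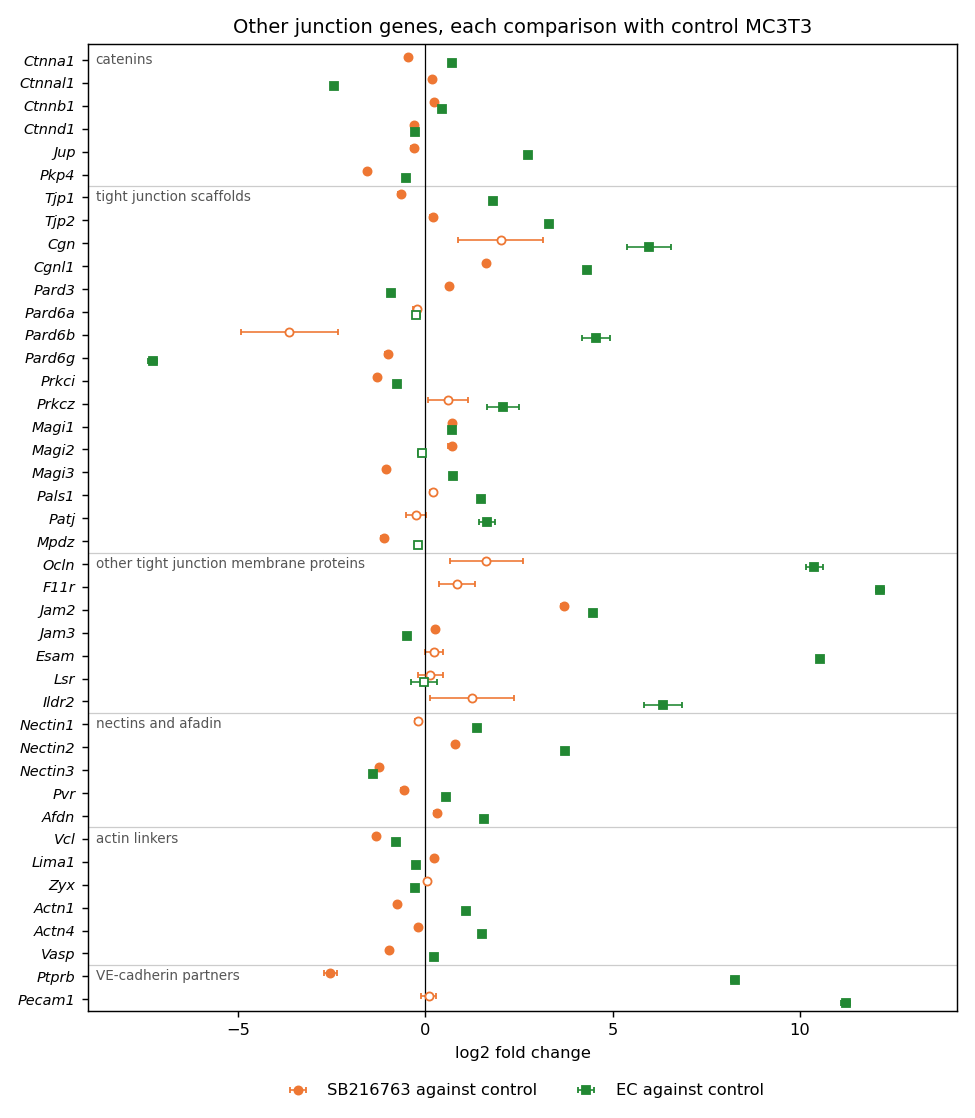
Log2 fold change of the 42 tested junction partner genes, grouped by role, for treated osteoblasts against controls (circles) and ECs against controls (squares), with bars of 1 SE and filled symbols for an FDR under 0.01. Both comparisons use the same 3 controls. Most circles lie within 2 of 0, and Jam2 and Ptprb pass that limit with an FDR under 0.01. Squares of Ocln, F11r, Esam, Ptprb, and Pecam1 lie beyond 8.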

How the data were processed

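RNA-Seq counts per gene, whole numbers that the authors obtained with STAR and deposited without normalization, were used for 9 libraries. The submitters' processing notes name STAR 2.5.3a and GRCm38. The annotation release and strand setting are not given in the sources used here. The sample labels repeat the SB216763 protocol for every sample, so groups were taken from titles and treatment entries. Each column was matched to its library by name.

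Ensembl identifiers were mapped to symbols, coordinates, and union exon lengths in GENCODE release M21. Genes kept by filterByExpr were normalized by TMM and tested with the quasi-likelihood test of edgeR 4.0.16 (R 4.3.3) in one fit of all 9 libraries, with Benjamini-Hochberg adjustment over the 15531 genes tested and a prior count of 0.125. A gene passed at an FDR under 0.01, and at 4-fold with an additional log2 fold change of 2 or more in size. SEs were derived from the fold change and the F statistic. Ratios of pooled counts carry exact 95% binomial intervals. The test was checked on simulated data with known changes. Pairs of replicates differed by more than sampling noise, with a chi-square per gene of 3.01 to 115. By group it was 29.1 to 115 in controls, 3.35 to 29.1 after treatment, and 3.01 to 4.88 in ECs.

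The members and lists were chosen with earlier results of these data known. Members described singly are those past the FDR with at least 1 CPM in a group, plus Cdh1, Cdh2, Cdh5, Cdh11, and Cldn5. Junction partners named are those past the 4-fold cutoff with treatment at 1 CPM or more, plus Ctnnb1, Ctnnd1, Tjp1, Ocln, Esam, Ptprb, and Pecam1. Cdh3, Cldn1, Cldn6, Cldn15, Cldn20, and the overlapping genes Vsir, Tfb1m, and Wwc2 are named beside them. Pkp4 and F11r were added after their values were seen. Alternatives were DESeq2 1.42.0, limma-voom (limma 3.58.1), library size scaling, other filters, thresholds and prior counts, a replicate block, fits of 2 groups, and leaving out each library.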

Additional observations from a re-analysis of the deposited data

How the results depend on the processing

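Of the counts of members and junction partners passing the test, 221 of the recomputed values stayed within 1.5 times the count reported and 7 rose beyond it. The counts of junction partners were recomputed only with the fold cutoff lowered to log2 1. Their dependence on the other alternatives was not tested. Between treated and control osteoblasts, the members that rose at least 4-fold numbered 1 with scaling by library size alone (Cdh24) and 2 with the fold cutoff lowered to log2 1. Those that fell at least 4-fold numbered 5 without the expression filter (Cdh1 and Cldn19 were added) and 3 to 5 when single libraries were left out, the 5 coming without SB216763 replicate 2. With that lower cutoff, the junction partners numbered 2 rising and 8 falling with treatment and 25 lower in treated osteoblasts than in ECs. The share of all genes past the lower cutoff was not computed, so these counts and that of the members have no background beside them. Of the single-gene fold changes, 617 kept their direction and their side of the FDR threshold. Crossings of the 4-fold cutoff, such as those of Cdh2 and Cdh24, are not part of that count. With a library left out, Cdh5 between treated and control osteoblasts ran from -0.15 to 0.26 and Cdh23 from -0.44 to 0.59 on the log2 scale, changing sign without control replicates 1 and 3 (-0.15 and -0.03) or SB216763 replicate 2 (-0.08) for Cdh5, and without control replicate 2 (-0.07) or SB216763 replicate 2 (-0.44) for Cdh23; neither passed the test in any of these. Scaling by library size alone moved the median of all genes to 0.22 between treated and control osteoblasts and to 0.13 between ECs and controls. The cause of the other changes was not tested. The replicate numbers were not taken to pair the libraries, since same-numbered libraries correlated by -0.04 to 0.12 in their deviations from the group means. A fit with the replicate number as a block gave 2 members rising and 6 falling with treatment, the same counts as without it, and 10 and 5 for ECs against controls. Depth limits the genes near the floor, such as Cdh1, Cdh13, and Cldn5 in osteoblasts.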
